A study of Mus musculus with 13 samples.

Results

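The proteasome subunit genes were taken as every probe set that the annotation assigns to 1 gene with a symbol beginning Psma, Psmb, Psmc, Psmd, Psme, Psmf or Psmg. This gave 58 probe sets for 46 genes, out of 12488 probe sets on the Affymetrix array, 66 of them control probe sets, and 8251 genes with a probe set of their own. Psmc3ip and Psme3ip1 carry the prefix but are named for proteins that interact with a subunit, so 56 probe sets for 44 genes stood for subunits, regulators and assembly factors. A further 2 probe sets, annotated to Psme2 and Psme2b at once, fell outside the rule and were not examined. No probe set was annotated to Psme2 (PA28 beta) alone or to a Psmf gene.

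The study examined a combined drug treatment in a mouse model of Huntington's disease. Total RNA from whole brain hemispheres was hybridised to 13 arrays of 4 groups: 3 untreated wild type, 3 treated wild type, 4 untreated R6/2 and 3 treated R6/2. R6/2 mice carry a transgene with the first exon of human huntingtin and a long CAG repeat, driven by the human huntingtin promoter, beside their own huntingtin genes. Treatment was tacrine at 2.7 mg/kg/day from 5 weeks of age, moclobemide at 10 mg/kg/day and creatine at 1% in wet mash. The sample descriptions list these drugs for every array, so the treatment of each array was read from its title. An age at harvest, 8 weeks, was recorded for a single array (untreated wild type array 2). The lot number recorded for treated R6/2 array 1 differs from the number in its title and equals that of untreated R6/2 array 4. The labels do not say that each array came from a separate animal, so the p-values below measure the spread between arrays, which may be partly technical.

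The proteasome is the protease that degrades proteins tagged with ubiquitin. Its 20S core is a barrel of alpha and beta subunits, in which Psmb5, Psmb6 and Psmb7 carry the catalytic sites, and the 19S cap of ATPase (Psmc) and non-ATPase (Psmd) subunits recognises, unfolds and admits substrates. Interferon signalling induces Psmb8, Psmb9 and Psmb10, which replace the constitutive catalytic subunits in the immunoproteasome, and the PA28 activator genes Psme1 and Psme2. Fragments of mutant huntingtin accumulate in ubiquitin-positive inclusions in R6/2 brain, and proteasome function in such cells has long been studied.

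The deposited signals were on a common scale, with array medians over gene probe sets between 39.6 and 45.1. Untreated R6/2 arrays 2 and 3 stood apart from the rest. On the first principal component of the tested probe sets, which held 33.9% of the variance, they lay at 25.4 and 45.7, while no other array was above 4.09. The calls in untreated mice and the medians over proteasome probe sets are given with and without these 2 arrays. The control probe sets raise a further point: in untreated R6/2 arrays 2, 3 and 4, all 66 were 1.2 times the value in treated R6/2 array 1, treated R6/2 array 3 and untreated R6/2 array 1, respectively, to within 0.05 units of signal. In whole hemispheres, fewer cells of a type and less RNA per cell cannot be told apart.

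Of the 58 probe sets, 49 (for 42 genes) were bright enough to be tested, with a mean log2 signal equal to at least 24.9 on the linear scale. The other 9 were those of Psmb9, Psmc4, Psmd2 and Psmc3ip, which had no other probe set, and further probe sets of Psmb1, Psmb4 (2), Psmc5 and Psme1. Members with a suffix other than plain "_at", which marks probes that may read several transcripts or met fewer design rules, numbered 14. Among them were the only tested probe sets of Psma3, Psmb4, Psmb7 and Psmd12, so their values may not be specific to these genes. Changes were tested with limma on log2 signals over all 7453 probe sets tested, with Benjamini-Hochberg adjustment and a threshold of 0.05.

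**Figure D1:**
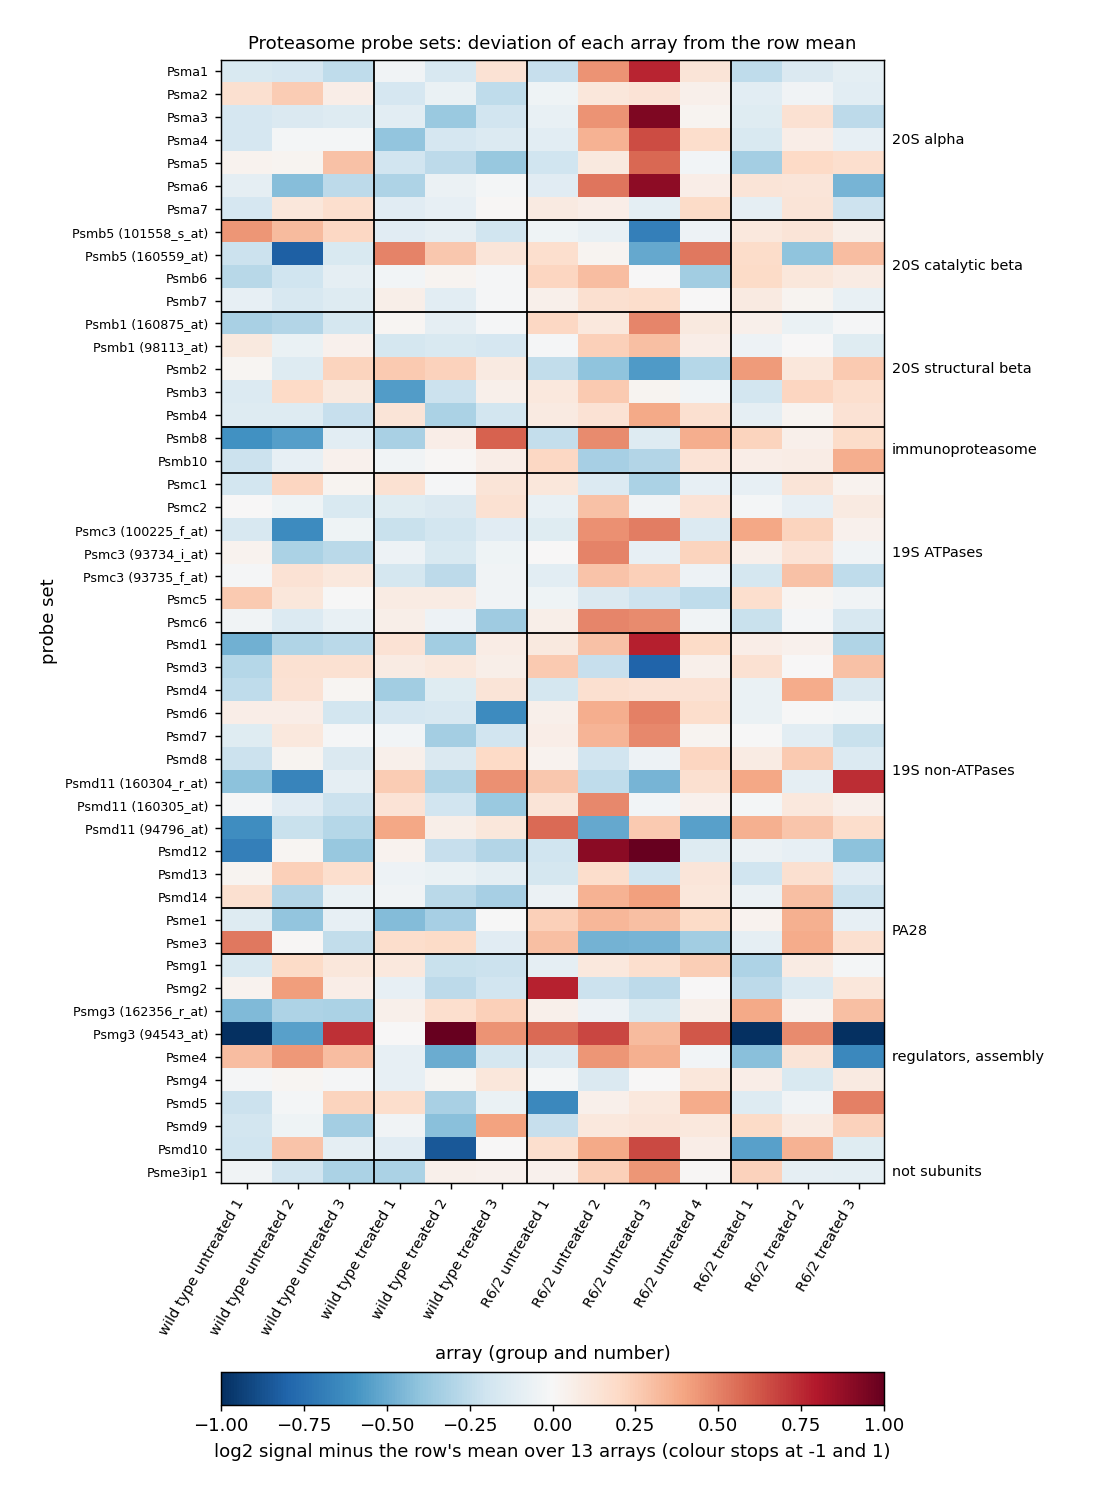
Each cell is the log2 signal of 1 of the 49 tested probe sets in 1 array minus that probe set's mean over 13 arrays, with arrays on the horizontal axis by group and probe sets on the vertical axis by role. Dark red cells gather in untreated R6/2 arrays 2 and 3, where 24 of the 49 probe sets had their highest signal (49%), against 29.1% of all tested.

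In untreated mice, 5 of 49 proteasome probe sets differed between R6/2 and wild type (10.2%), against 11.9% of all probe sets tested, so the share of proteasome probe sets called was close to the background. Psmb1, Psmd1 and Psme1 rose in R6/2 mice, and 1 of the Psmb5 probe sets and Psmb2 fell. The 3 that rose are 6.12% of the 49 and the 2 that fell 4.08%, against 5.49% and 6.41% of all. At an unadjusted p under 0.05 there were 18 (36.7%), against 30.2% of all. The groups did not overlap for 11 of 49 (22.4%), against 26.2%. The estimates leaned upwards: 36 of 49 (73.5%) lay above 0, against 54.3% of all, with a median log2 change of 0.23 against 0.04. With quantile normalization these medians were 0.24 and 0.03. Without untreated R6/2 arrays 2 and 3 the median was 0.13 against 0.05 and 37 of 49 (75.5%) estimates were above 0, against 56.3%.

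The 7 genes of the 20S alpha ring, which forms the gate of the core, had a median log2 change of 0.34 in untreated mice, and none passed the test. Without untreated R6/2 arrays 2 and 3 the median was 0.10. Psma6 read 538.1, 426.1 and 476.9 in untreated wild type mice and 530.8, 828.2, 1063.6 and 598.6 in untreated R6/2 mice. Arrays 2 and 3 set that mean, and array 1 lay inside the wild type range. The log2 change of Psma6 was 0.61 ± 0.21 (SE; limma, adjusted p = 0.0754), and 0.24 (adjusted p = 0.487) without these 2 arrays. Psma3 followed the same arrays, with 720.2, 733.4 and 743.6 in wild type and 771.4, 1105.5, 1550.8 and 824.7 in R6/2 mice. Here the groups did not overlap, but the spread within R6/2 mice was wide and the change of 0.48 ± 0.19 did not pass (adjusted p = 0.11). It was 0.12 without the 2 arrays. Psma1 (0.47) and Psma4 (0.34) had estimates of like size, while Psma2 (-0.10), Psma5 (-0.01) and Psma7 (0.02) stayed near 0, and none of the 5 passed.

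Among the structural beta subunits, which complete the inner rings without cutting, Psmb1 rose in untreated R6/2 mice. Its probe set 160875_at read 657.8, 672.1 and 726.7 in wild type and 949.7, 883.6, 1152.6 and 880.2 in R6/2 mice. All 4 R6/2 arrays were above all 3 wild type arrays. The means were 686 ± 36.4 (SD, n = 3) and 967 ± 128 (SD, n = 4), a log2 change of 0.49 ± 0.11 (SE; limma, adjusted p = 0.0152). A second tested probe set of the gene, 98113_at, did not pass: it read 319.6, 284.4 and 308 in wild type and 296.5, 352.7, 367.1 and 311.9 in R6/2 mice, with overlapping groups and a log2 change of 0.12 ± 0.11 (adjusted p = 0.459). The call on 160875_at held without untreated R6/2 arrays 2 and 3 (0.42, adjusted p = 0.039) and was lost when either untreated wild type array 1 or array 2 was left out (adjusted p = 0.053 and 0.0649).

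Psmb2, another structural subunit, fell in untreated R6/2 mice. It read 245, 220 and 282 in wild type and 203.6, 182.3, 162.9 and 197.9 in R6/2 mice, so that every R6/2 array lay below every wild type array. The means were 249 ± 31.2 (SD, n = 3) and 187 ± 18.2 (SD, n = 4), a log2 change of -0.41 ± 0.13 (SE; limma, adjusted p = 0.0478). This call lay close to the threshold. It was lost without arrays 2 and 3 together (-0.30, adjusted p = 0.243), with quantile normalization (-0.39, adjusted p = 0.0545), and on leaving out any single array other than untreated R6/2 array 1 or 4, with adjusted p from 0.0505 to 0.201. The remaining structural subunits, Psmb3 (0.04) and Psmb4 (0.35, adjusted p = 0.0676), did not pass.

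The constitutive catalytic subunits, with 4 tested probe sets, included 1 call. Psmb5 carries the chymotrypsin-like site, and its 2 probe sets gave opposite signs in untreated mice. Probe set 101558_s_at read 584.3, 534.8 and 495.5 in wild type and 416.9, 408.3, 268.5 and 415.8 in R6/2 mice. All R6/2 arrays were below all wild type arrays, with array 3 far below the other 3. The means were 538 ± 44.5 (SD, n = 3) and 377 ± 72.7 (SD, n = 4), and this probe set fell by 0.53 on the log2 scale (SE 0.14; limma, adjusted p = 0.0315).

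The second Psmb5 probe set, 160559_at, read 92, 60.8 and 96 in wild type and 120.1, 108.8, 74.7 and 153.8 in R6/2 mice. The groups overlapped through R6/2 array 3, and its log2 change of 0.45 ± 0.24 did not pass (adjusted p = 0.226). The 2 probe sets disagree in sign, so no direction can be given for the gene. The s suffix of 101558_s_at marks probes shared with other transcripts. Its call was lost without any 1 of the 3 untreated wild type arrays (adjusted p from 0.0734 to 0.103) and without untreated R6/2 arrays 2 and 3 (-0.37, adjusted p = 0.0767).

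Psmb6 and Psmb7 carry the caspase-like and trypsin-like sites, and neither passed. Psmb6 read 191.8, 201.9 and 218.3 in wild type and 270, 287.8, 232.4 and 182.8 in R6/2 mice, for a change of 0.23 ± 0.14 (SE; limma, adjusted p = 0.274). Array 4 was the lowest of these 7 arrays. Without it the change was 0.37 and passed (adjusted p = 0.0476), while without array 2 it was 0.15. Psmb7 read 321.3, 305.2 and 312.3 in wild type and 353, 380.4, 384.4 and 341.2 in R6/2 mice. The groups did not overlap, yet the change was small, 0.22 ± 0.10 (adjusted p = 0.15).

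**Figure D2:**
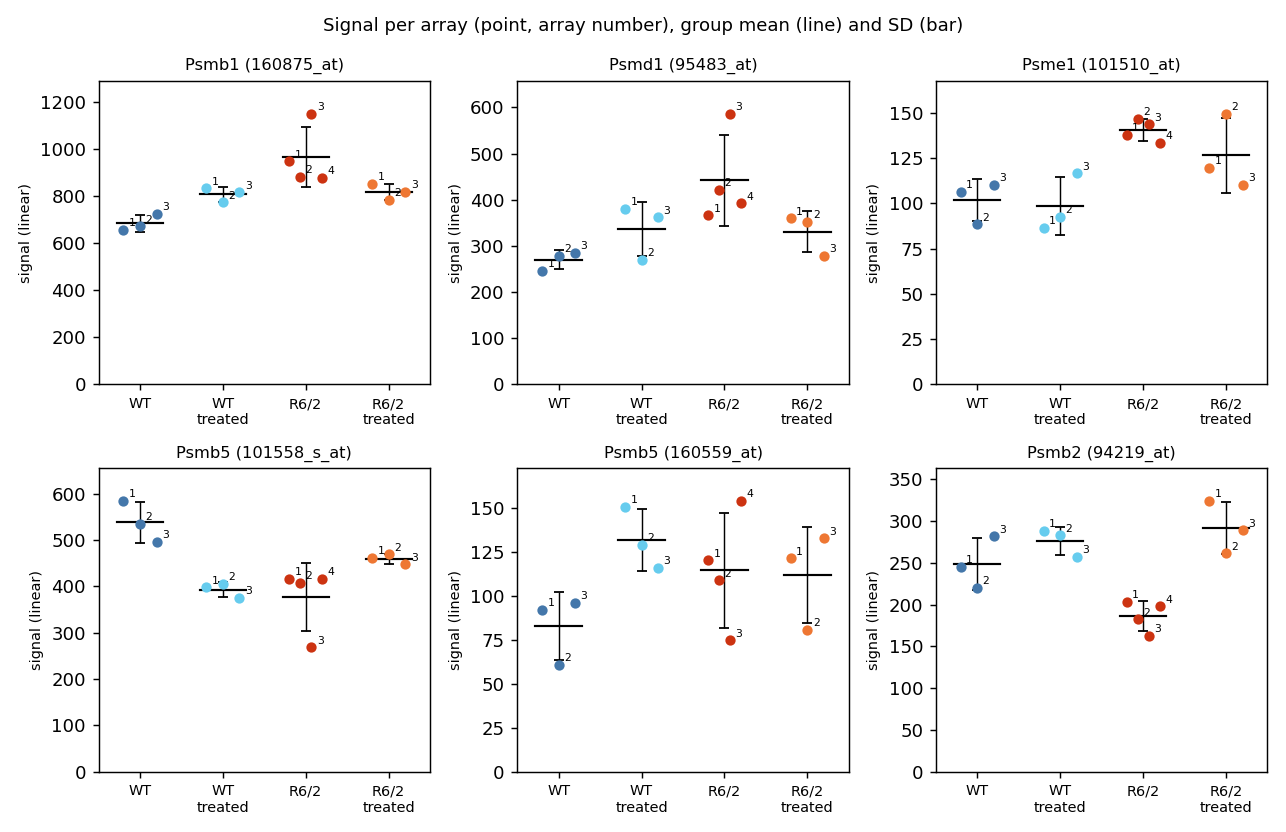
Each panel plots the signal (linear scale from 0) of 1 probe set in every array, as numbered points by group, with the group mean as a line and the SD as a bar. Untreated R6/2 arrays lie above untreated wild type arrays for Psmb1, Psmd1 and Psme1 and below them for Psmb2 and Psmb5 101558_s_at, while those of Psmb5 160559_at overlap.

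In the 19S cap, 1 of 19 tested probe sets passed in untreated mice, with a median log2 change of 0.27 over the cap, or 0.13 without untreated R6/2 arrays 2 and 3. Psmd1, the large non-ATPase scaffold subunit, rose in R6/2 mice. It read 246.5, 278.8 and 285.4 in wild type and 366.3, 421.3, 586.7 and 392.5 in R6/2 mice, with no overlap and the highest value in array 3. The means were 270.2 ± 20.8 (SD, n = 3) and 442 ± 99.2 (SD, n = 4), a log2 change of 0.69 ± 0.17 (SE; limma, adjusted p = 0.0222). The call was lost without untreated R6/2 arrays 2 and 3 (0.49, adjusted p = 0.12) and without any 1 of the 3 untreated wild type arrays (adjusted p from 0.0652 to 0.0797).

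Psmd12, a further scaffold subunit of the cap, had the largest estimate among the cap subunits and shows the weight of those 2 arrays. It read 80.4, 131 and 99 in wild type and 112.7, 241.2, 364.8 and 117.9 in R6/2 mice, with arrays 1 and 4 inside the wild type range. The log2 change of 0.87 ± 0.33 did not pass (limma, adjusted p = 0.0923) and was 0.18 (adjusted p = 0.643) without arrays 2 and 3. Among the ATPases, which form the unfolding ring, Psmc6 (0.33) and 2 of 3 probe sets of Psmc3 (0.45 and 0.35, with 0.01 for the third) had estimates above 0, and Psmc5 was at -0.28 (adjusted p = 0.0927). Psmc5 read 403, 364 and 336.7 in wild type and 327.9, 305.3, 292.3 and 282.3 in R6/2 mice, without overlap. The 3 probe sets of Psmd11 had like estimates, 0.32, 0.27 and 0.32. The other 9 cap subunits tested (Psmc1, Psmc2, Psmd3, Psmd4, Psmd6, Psmd7, Psmd8, Psmd13 and Psmd14) lay between -0.18 (Psmd3) and 0.29 (Psmd6). None of the cap subunits in this paragraph passed the test.

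PA28 opens the core without ubiquitin or ATP. Its alpha subunit gene, Psme1, rose in untreated R6/2 mice. Probe set 101510_at read 106.5, 88.5 and 110.2 in wild type and 137.8, 146.7, 143.7 and 133.3 in R6/2 mice. The 4 R6/2 values lay close together, and all lay above every wild type array, arrays 2 and 3 highest. The means were 102 ± 11.6 (SD, n = 3) and 140.4 ± 5.99 (SD, n = 4), a log2 change of 0.47 ± 0.15 (SE; limma, adjusted p = 0.0492). The change stayed at 0.42 without arrays 2 and 3, where with fewer arrays it no longer passed (adjusted p = 0.217). Being near the threshold, the call was also lost with quantile normalization (0.47, adjusted p = 0.0507) and on leaving out any single array other than treated wild type array 3, untreated R6/2 array 4 or treated R6/2 array 2, with adjusted p from 0.0529 to 0.188.

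Psme3, which encodes PA28 gamma, the nuclear activator, ran the other way without passing. It read 280.9, 196.4 and 164.6 in wild type and 240.6, 140.1, 141.1 and 153.5 in R6/2 mice, for a change of -0.34 ± 0.21 (SE; limma, adjusted p = 0.285). The groups overlapped through R6/2 array 1. On leaving out single arrays the change ran from -0.53 (without untreated R6/2 array 1) to -0.13 (without untreated wild type array 1).

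The immunoproteasome catalytic subunits were dim or did not differ beyond the spread. Psmb8 read 20.2, 21 and 28.6 in untreated wild type and 26, 42.6, 28.1 and 39.5 in untreated R6/2 mice, close to the brightness limit. The groups overlapped and the log2 change of 0.54 ± 0.26 did not pass (limma, adjusted p = 0.173). Psmb10 read 153.3, 168.4 and 183.6 in wild type and 205.5, 142.1, 146 and 196.1 in R6/2 mice. Here arrays 2 and 3 were the lowest of the 7 and arrays 1 and 4 the highest, and the change was 0.02 ± 0.15 (adjusted p = 0.948). Psmb9 was below the brightness limit, between 4.5 and 21.3 in the 6 wild type arrays and between 4.9 and 15.5 in the 7 R6/2 arrays, and was not tested.

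**Figure D3:**
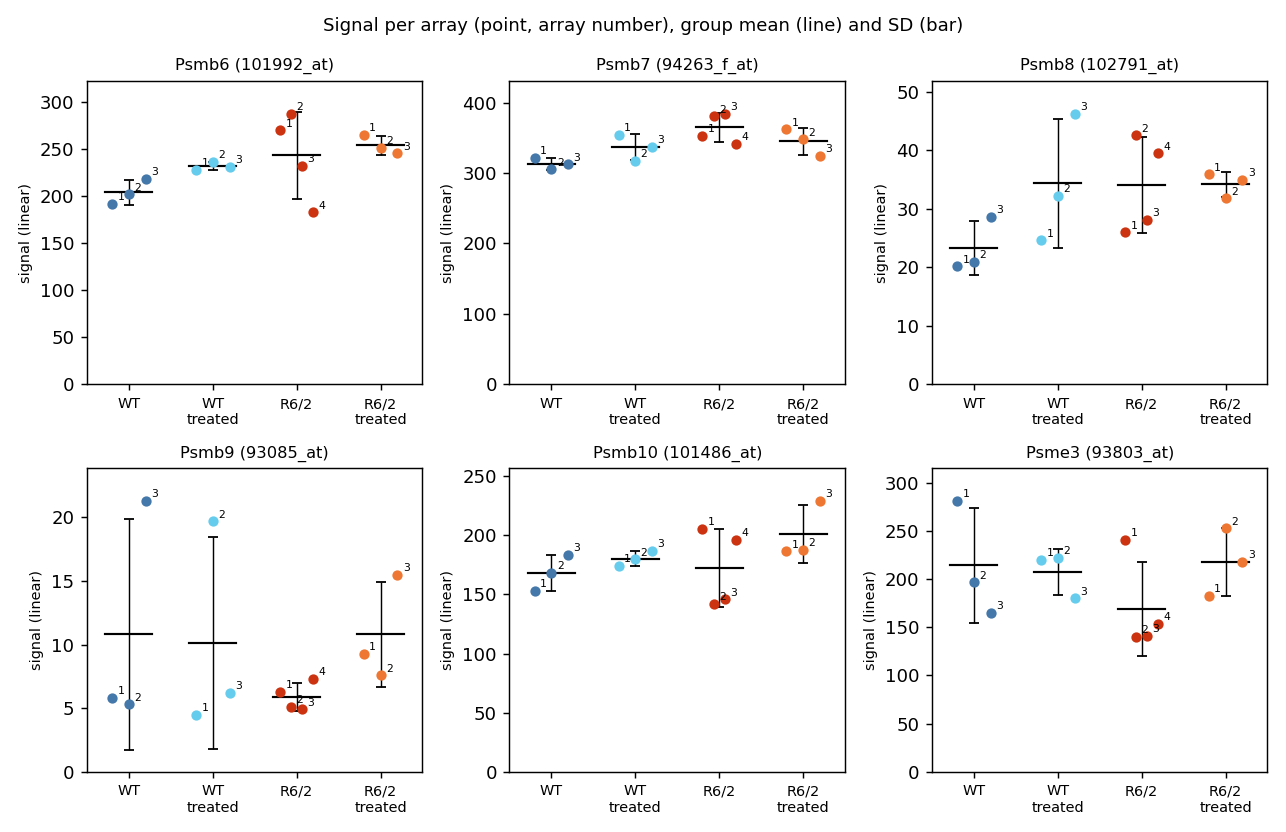
Each panel plots the signal (linear scale from 0) of 1 probe set in every array, as numbered points by group, with the group mean as a line and the SD as a bar. For Psmb6, Psmb8, Psmb10 and Psme3 the untreated R6/2 and wild type arrays overlap, for Psmb7 they do not, and Psmb9 stays at or below 21.3 in every array.

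The regulators and assembly factors, 9 tested probe sets for 8 genes, included no call in untreated mice and had a median log2 change of 0.06, or 0.12 without untreated R6/2 arrays 2 and 3. Psmg3, an assembly chaperone of the core, had 2 probe sets at 0.33 (162356_r_at, adjusted p = 0.0799) and 0.91 (94543_at, adjusted p = 0.223). Psme4, which encodes the PA200 activator, was at -0.19, and Psmd10, a chaperone of the cap also known as gankyrin, at 0.32. The other 5, the assembly chaperone genes Psmg1, Psmg2 and Psmg4 and the cap chaperone genes Psmd5 and Psmd9, lay between -0.10 (Psmg2) and 0.21 (Psmd9). Psme3ip1, not itself a subunit, was at 0.36 (adjusted p = 0.116).

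The 2 arrays that stood apart held the highest signals of many proteasome probe sets. Both arrays were above all other 11 for 15 of 49 proteasome probe sets (30.6%), against 15.3% of all tested, and these came from the alpha ring (Psma1, Psma3, Psma4, Psma6), the beta ring (Psmb1 98113_at, Psmb7), the cap (Psmc3, Psmc6, Psmd1, Psmd6, Psmd7, Psmd12, Psmd14), Psmd10 and Psme3ip1. Both lay below all other 11 for 3 (6.12%), Psmb2, Psmb10 and Psme3, against 12.7% of all. Over the 20S core the median deviation from each probe set's own mean was 0.15 and 0.24 in arrays 2 and 3, against -0.03 and 0.05 in untreated R6/2 arrays 1 and 4. Over the cap it was 0.29 and 0.14, against 0.04 and 0.05. Without these arrays 1 of 49 proteasome probe sets passed in untreated mice (2.04%, Psmb1 160875_at), against 2.19% of all. Whether what sets the 2 arrays apart is technical was not tested.

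**Figure D4:**
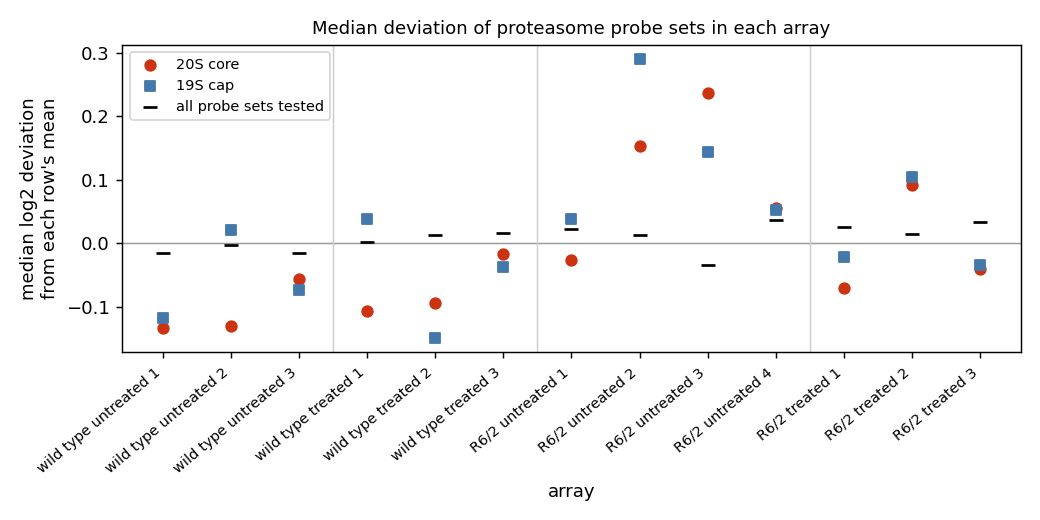
For each array on the horizontal axis, the vertical axis gives the median log2 deviation from each probe set's mean over 13 arrays, for the 16 probe sets of the 20S core, the 19 of the 19S cap and all 7453 tested. Core and cap stand highest in untreated R6/2 arrays 2 and 3 (0.14 to 0.29), while the median of all probe sets stays between -0.03 and 0.04.

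In treated mice, none of the 49 proteasome probe sets differed between R6/2 and wild type (limma), against 0.792% of all. At an unadjusted p under 0.05 there were 2 (4.08%), against 9.19% of all: Psme1 above and Psmg3 94543_at below. Estimates above 0 numbered 40 of 49 (81.6%), against 56.1%, but with a small median of 0.08 against 0.03. Psme1 read 86.5, 92.4 and 116.5 in treated wild type and 119.6, 149.6 and 110.2 in treated R6/2 mice, overlapping in 1 array of each group. Its log2 change was 0.36 ± 0.16 (adjusted p = 0.496). Psmb1 160875_at (0.02), Psmd1 (-0.02) and Psmb2 (0.07) were near 0 in treated mice. For Psmb5 the signs were again opposite and the reverse of those in untreated mice, 0.23 for 101558_s_at and -0.26 for 160559_at, neither passing. The remaining catalytic and activator probe sets were small, with Psmb6 at 0.13, Psmb7 at 0.04, Psmb8 at 0.04, Psmb10 at 0.15 and Psme3 at 0.06. Psmd6 had the next smallest p among positive estimates (0.29 ± 0.15, adjusted p = 0.621).

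**Figure D5:**
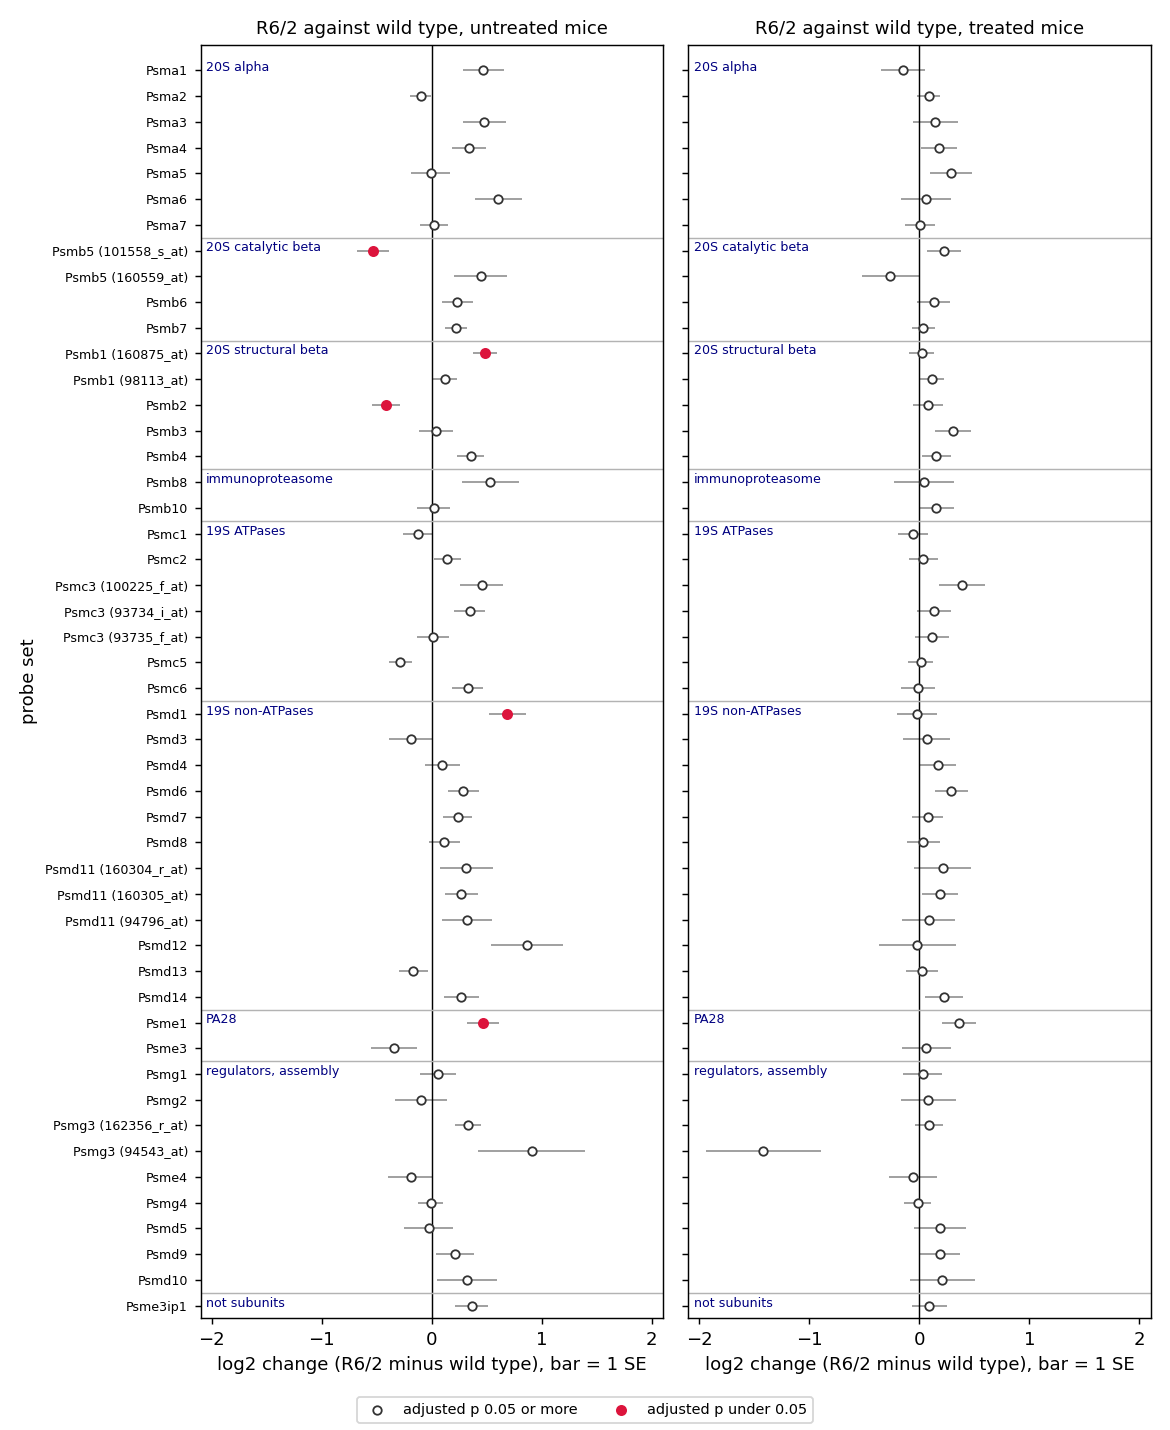
Points give the log2 change, R6/2 minus wild type, of each tested proteasome probe set in untreated (left) and treated (right) mice, with bars of 1 SE and filled points for an adjusted p under 0.05. In untreated mice 5 points are filled and 36 of 49 lie above 0, and in treated mice none is filled and most lie close to 0, with Psmg3 94543_at at -1.42.

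Averaged over both treatment arms, Psme1 was the 1 proteasome probe set of 49 that passed (2.04%), against 6.61% of all. It rose in R6/2 mice by a log2 change of 0.42 ± 0.11 (SE; limma, adjusted p = 0.0312). The 7 R6/2 arrays read from 110.2 to 149.6 and the 6 wild type arrays from 86.5 to 116.5. The call was lost without untreated R6/2 arrays 2 and 3 (0.39, adjusted p = 0.0764) and on leaving out any 1 of 7 arrays: untreated wild type 1 or 2, treated wild type 1 or 2, untreated R6/2 2, or treated R6/2 1 or 2, with adjusted p from 0.0527 to 0.0898. Psmb1 160875_at came next (0.25 ± 0.08, adjusted p = 0.0722), and the smallest p values among negative estimates belonged to Psmb2 (-0.17) and Psmc5 (-0.14). At an unadjusted p under 0.05 there were 10 (20.4%), against 24% of all.

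No proteasome probe set passed the test for treatment in R6/2 mice (limma, 0 of 49, against 0% of all 7453). Each treatment comparison shares its untreated arrays with the genotype comparison in untreated mice, so their values are set side by side only. At an unadjusted p under 0.05 there were 11 (22.4%), against 16.9% of all, and 17 of 49 estimates (34.7%) lay above 0, against 52.4%. All 7 alpha subunits had estimates below 0, with a median of -0.33. Without untreated R6/2 arrays 2 and 3 that median was -0.08, and 1 of the 7 lay above 0. Over all 49 the median was -0.11 against 0.02, and without the 2 arrays it was -0.03 against -0.01.

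Psmb2 had the smallest p of the proteasome probe sets and ranked 3 of 7453. It read 203.6, 182.3, 162.9 and 197.9 in untreated and 324.1, 261.4 and 289 in treated R6/2 mice, with all treated arrays above all untreated ones. The log2 change was 0.64 ± 0.13 (SE; limma, adjusted p = 0.246), and it passed when untreated R6/2 array 1 was left out (0.69, adjusted p = 0.0296). For Psmb2 the treated R6/2 mean, 292 ± 31.4 (SD, n = 3), lay above both wild type means, 249 untreated and 276 treated. Psmc6 was at -0.38 (adjusted p = 0.254).

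Psmg3 94543_at had a far larger estimate and a far larger spread. It read 85.3, 91.6, 71.5 and 88.5 in untreated R6/2 and 19.8, 79.8 and 18.9 in treated R6/2 mice. Treated arrays 1 and 3 were low and array 2 was level with untreated mice, and the log2 change of -1.43 ± 0.49 did not pass (limma, adjusted p = 0.249). Untreated wild type mice spread as widely, at 23.7, 39.4 and 95.4. The gene's other probe set, 162356_r_at, had the opposite sign, 0.26 (adjusted p = 0.281).

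In wild type mice none of the 49 passed the test for treatment either (limma, against 0% of all). At an unadjusted p under 0.05 there were 6 (12.2%), against 10.3%, and 25 of 49 estimates (51%) were above 0, against 52.3%. Psmg3 162356_r_at read 128.7, 140.8 and 140.1 in untreated and 180.3, 195.4 and 205.8 in treated wild type mice, without overlap, a log2 change of 0.50 ± 0.13 (adjusted p = 0.258). Psma2 read 623.6, 666.6 and 584.5 in untreated and 496, 531.7 and 466.5 in treated mice, also without overlap, a change of -0.33 ± 0.10 (adjusted p = 0.322). Both were separated by more than the spread within groups, yet neither passed over all probe sets. The Psmb5 probe sets differed in sign once more, -0.45 for 101558_s_at and 0.69 for 160559_at. Psmb8 did not pass in either treatment comparison (0.53 in wild type and 0.04 in R6/2 mice), with 24.6, 32.2 and 46.3 in treated wild type and 35.9, 31.8 and 35 in treated R6/2 mice.

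No proteasome probe set passed the test of a difference in genotype effect between the treatment arms (interaction term, limma: 0 of 49, against 0% of all). At an unadjusted p under 0.05 there were 6 (12.2%), against 13.5% of all. Those with the smallest p in each direction were Psmb5 101558_s_at (0.76, adjusted p = 0.305) and Psmb2 (0.49, adjusted p = 0.316) on the positive side, and Psmg3 94543_at (-2.33, adjusted p = 0.305) and Psmb1 160875_at (-0.47, adjusted p = 0.315) on the negative side. Psmb1 160875_at, Psmd1, Psme1, Psmb2 and Psmb5 101558_s_at passed between the genotypes in untreated mice and not in treated mice. For none of them is this therefore shown to be a difference between the arms.

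Genes that work beside the proteasome were examined in fixed lists, again with limma over all probe sets. Of 7 tested partners outside the prefixes, 1 rose and 1 fell in untreated R6/2 mice (14.3% each), against 5.49% and 6.41% of all. Ecpas, which encodes a protein that tethers the cap to the core, rose by 0.59 ± 0.15 (adjusted p = 0.0265), and Nfe2l1, the transcription factor that raises subunit genes when proteasome activity falls, fell by 0.51 (SE 0.15; adjusted p = 0.0473). Nfe2l1 read 531.3, 547 and 555.2 in wild type and 453.3, 314.8, 310.8 and 480.5 in R6/2 mice, lowest in arrays 2 and 3. Without these 2 arrays neither passed, with Nfe2l1 at -0.22 (adjusted p = 0.314) and Ecpas at 0.55 (adjusted p = 0.115). In treated mice the log2 changes of Ecpas and Nfe2l1 were -0.23 and -0.01.

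Of 16 tested genes of ubiquitin activation and conjugation, 1 rose in untreated R6/2 mice, Ube2v2 (0.65, adjusted p = 0.0475). That is 6.25% of the list, near the 5.49% of all that rose. Of these 16 estimates 14 lay above 0, with a median of 0.31, and of the 7 partners 6, with a median of 0.35. Over all probe sets 54.3% lay above 0, with a median of 0.04. The upward lean was therefore not particular to the proteasome probe sets. Without untreated R6/2 arrays 2 and 3 Ube2v2 was at 0.39 (adjusted p = 0.324). None of 11 deubiquitinases (6 above 0, median 0.01) and none of 9 shuttle and segregase genes (6 above 0, median 0.18) passed in untreated mice. In the average over both arms 1 of 11 deubiquitinases fell (9.09%, against 6.61% of all called in either direction). It was Usp2, which fell by 0.44 (limma, adjusted p = 0.00944, and 0.00637 without untreated R6/2 arrays 2 and 3). For the 4 ubiquitin genes listed, no probe set was annotated to 1 gene.

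Interferon-induced genes, which share their inducer with the immunoproteasome and PA28, were examined beside Psme1 and Psmb8. Of 13 tested, 5 rose in untreated R6/2 mice (38.5%, against 5.49% of all) and none fell. They were Irf9 (0.90), Ifit3 (1.06), Ifitm3 (0.69), Gbp7 (0.88) and Lgals3bp (0.98), with adjusted p from 0.00511 to 0.0249 (limma). Over the 13 the median log2 change was 0.69, against 0.04 over all probe sets. Without untreated R6/2 arrays 2 and 3 the median was 0.71, with Ifitm3 still passing (0.71, adjusted p = 0.0247) and the other 4 between 0.79 and 1.00 with adjusted p from 0.0728 to 0.12. In treated mice 1 of 13 rose (7.69%, against 0.792% of all called in either direction), Ifitm3 (0.71; limma, adjusted p = 0.0173), with a median of 0.42. Ifitm3 read 124.3, 112.5 and 116.1 in untreated wild type and 193.2, 190.6, 186.7 and 190.4 in untreated R6/2 mice, all 4 alike. In the same arrays none of 7 tested genes of MHC class I antigen presentation passed. The smallest p was that of Pdia3 (0.50; limma, adjusted p = 0.0929). B2m, the class I light chain, was at 0.58 (adjusted p = 0.115) and Tap1, the peptide transporter, at 0.34 (adjusted p = 0.279). The class I heavy chain genes H2-K1 and H2-D1 were at 0.24 and 0.29, and Tapbp (-0.06) and Canx (0.05) were near 0. Of these 7 estimates 6 lay above 0, with a median of 0.29. The list of interferon-induced genes was chosen with earlier results of these arrays known, so its direction is not independent evidence.

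Cell type markers moved with genotype in the same arrays. In untreated R6/2 mice 4 of 7 tested oligodendrocyte (57.1%) and 3 of 5 striatal projection neuron markers (60%) fell, against 6.41% of all. So did 2 of 9 neuron (22.2%), 2 of 7 astrocyte (28.6%) and 1 of 3 red blood cell markers (33.3%). None of 7 endothelial and none of 2 lymphocyte markers passed, and 1 of 9 microglial markers rose (11.1%), against 5.49% of all. The microglial gene was Ctss (0.72; limma, adjusted p = 0.0198), while 6 of the 9 microglial estimates lay below 0, with a median of -0.29. Of the 7 astrocyte estimates 4 lay above 0, with a median of 0.18. Without untreated R6/2 arrays 2 and 3, 2 of 7 oligodendrocyte, 2 of 5 striatal projection neuron and 1 of 9 neuron markers passed, all lower. The share of all probe sets called without these arrays, in either direction, is given above beside the proteasome count. Ctss was then at 0.47 (limma, adjusted p = 0.146). The summed signal was taken over all 12 microglial markers with a probe set, 9 of them tested. It ran from 1284.4 to 1605.8 in untreated wild type and from 1483.8 to 1645 in untreated R6/2 mice, overlapping. The lymphocyte markers Cd3e, Cd3d, Cd3g, Cd8a and Cd79b were all below the brightness limit. The part of these markers in the values of Psme1 and Psmb8 was not tested.

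The promoters of the genes that illustrate these results were read from RefSeq (build GRCm38.p6), as the 250 bases before the annotated start, 5′ to 3′ on the gene's strand. The table held 39 of the 46 genes, with 42 promoters. Psmd1 and Psme1 are shown as genes that rose in untreated R6/2 mice, Psmb5 as the gene with opposed probe sets and Psmb8 as the immunoproteasome subunit tested. They lie at chr1:86064369-86064618 on the plus strand (Psmd1), chr14:55578244-55578493 on the plus strand (Psme1), chr14:54617996-54618245 on the minus strand (Psmb5) and chr17:34197945-34198194 on the plus strand (Psmb8). Capitals mark a match to a searched motif.
Psmd1: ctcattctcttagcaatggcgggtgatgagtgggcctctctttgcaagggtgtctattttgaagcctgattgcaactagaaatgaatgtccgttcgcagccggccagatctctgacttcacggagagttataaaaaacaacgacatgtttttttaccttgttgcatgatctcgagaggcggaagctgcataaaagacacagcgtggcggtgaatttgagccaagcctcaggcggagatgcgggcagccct
Psme1: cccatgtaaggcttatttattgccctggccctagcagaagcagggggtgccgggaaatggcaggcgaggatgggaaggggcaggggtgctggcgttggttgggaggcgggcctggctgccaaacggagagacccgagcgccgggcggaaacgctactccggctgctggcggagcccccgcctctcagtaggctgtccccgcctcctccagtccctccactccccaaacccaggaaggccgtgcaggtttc
Psmb5: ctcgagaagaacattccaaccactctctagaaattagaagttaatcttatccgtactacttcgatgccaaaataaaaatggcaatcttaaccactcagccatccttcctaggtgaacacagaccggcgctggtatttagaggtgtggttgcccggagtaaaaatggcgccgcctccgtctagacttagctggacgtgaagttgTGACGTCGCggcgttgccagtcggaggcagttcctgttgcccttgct
Psmb8: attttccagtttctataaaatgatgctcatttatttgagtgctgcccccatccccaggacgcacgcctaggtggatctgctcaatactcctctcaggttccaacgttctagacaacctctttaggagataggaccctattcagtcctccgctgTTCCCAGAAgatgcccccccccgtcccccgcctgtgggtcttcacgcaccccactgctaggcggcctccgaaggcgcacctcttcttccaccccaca

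Motifs were searched on both strands, and overlapping matches were allowed. The core of the antioxidant response element, TGACNNNGC, which NRF-family factors such as Nfe2l1 bind, was in 11.9% of the 42 proteasome promoters, against 10.2% of all 32851 promoters of this length. Its 5 genes were Psmb5, Psmb6, Psmc6, Psmd9 and Psmd12, and the match in Psmb5 lies 47 to 39 bases before the start. The gamma-activated sequence TTCNNNGAA, which STAT factors bind, was in 4.76% against 7.02%, and one of its 2 genes was Psmb8, with the match 97 to 89 bases before the start. The interferon-stimulated response element core, a pair of GAAA with 2 bases of any kind between them, was in 7.14% against 2.98% (Psmb3, Psmd4 and Psmd9), and the CCAAT box in 35.7% against 33.8%. The windows of Psmd1 and Psme1 held no match to any of the 4 motifs.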

How the data were processed

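The deposited table gives 1 intensity per probe set and array, on a linear scale, for Affymetrix MG-U74Av2 arrays of total RNA from mouse whole brain hemispheres. The software by which the authors made these intensity values is not given in the sources used here. Groups came from sample titles. Array numbers follow the order of the samples and pair nothing.

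Values under 3.1 (the 10th percentile) were raised to it and log2 transformed. Probe sets at or above the 40th percentile of mean log2 signal were tested with limma 3.58.1 in R 4.3.3: 1 mean per group over all 13 arrays, eBayes with a trend, and Benjamini-Hochberg adjustment over 7453 probe sets. As no array's median was more than 10% from the mean of the medians (largest 6.73%), no further normalization was applied. Arrays limit the precision by their number. The fit was tested on simulated data.

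Named were members past the threshold in any of 6 comparisons, all catalytic, immunoproteasome and PA28 probe sets, the 2 with the smallest p in each direction per comparison, and genes whose probe sets had opposite signs. The remaining members were named, some with values chosen after seeing them (Psma3, Psma6, Psmd12), to account for each role. The members and lists were chosen with earlier results of these data known. Alternatives changed the arrays in the fit, normalization, floor, filter, array weights, probe sets per gene and single arrays. The values of related and marker genes without untreated R6/2 arrays 2 and 3 were added after seeing the data. Figures were drawn with matplotlib 3.10.9.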

Additional observations from a re-analysis of the deposited data

Results flagged for a closer look

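In untreated R6/2 mice, 4 of 49 proteasome probe sets had 1 array far from the other 3, with a gap above Dixon's 95% critical value for 4 samples. Chance gives this in about 1 in 20 groups. The share of all tested probe sets with such a gap in these arrays is not given here, so no excess is read from the 4. Psmb5 101558_s_at was 268.5 in array 3, against 408.3 to 416.9 in the others. Psme3 was 240.6 in array 1, against 140.1 to 153.5. Psmd4, the ubiquitin receptor of the cap, was 263.5 in array 1, against 329 to 333.2, and Psmd9, an assembly chaperone of the cap, was 66.8 in array 1, against 84.1 to 85.1. For both of these and for Psme3, array 1 was the one apart.

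A further pair of probe sets had effects of opposite direction without overlap of the groups. Between the genotypes in untreated mice alone, 26.2% of all probe sets had no overlap. The share of all that meets the full rule is not given here, so the pair is not read as unusual. For Psmb5 101558_s_at, R6/2 arrays lay below wild type arrays in untreated mice and above them in treated mice, and the interaction was 0.76 (limma, unadjusted p = 0.0027, adjusted p = 0.305). For Psmb1 160875_at, treated arrays lay above untreated arrays in wild type mice and below them in R6/2 mice, and the interaction was -0.47 (limma, unadjusted p = 0.01, adjusted p = 0.315). Neither interaction passed the threshold over all probe sets.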

How the results depend on the processing

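The count of proteasome probe sets called between the genotypes in untreated mice, 5, was 0 with only the arrays compared, 1 without the brightness filter and 1 without untreated R6/2 arrays 2 and 3. On leaving out single arrays it ran from 0 (without untreated wild type array 1 or 2) to 9 (without untreated R6/2 array 1). It was 1 without untreated wild type array 3, 8 without untreated R6/2 array 4, and 3 without untreated R6/2 array 2 or 3, treated wild type array 1 or 2, or treated R6/2 array 1 or 3. With array weights the count was 1 for the genotype in treated mice (Psmg3 94543_at, -1.96, adjusted p = 0.0451), 1 for the treatment in wild type mice (Psmg3 162356_r_at, adjusted p = 0.0311) and 4 for the averaged genotype effect. For the treatment in R6/2 mice it ran from 0 to 1 on leaving out single arrays. The averaged effect, 1, was 2 with quantile normalization (Psmb1 160875_at joined, adjusted p = 0.0305), 0 without untreated R6/2 arrays 2 and 3, and 0 to 1 without single arrays. All 6 counts stayed within 1.5 times under a floor of 10 and with 1 probe set a gene. The counts in this paragraph are given without the share of all probe sets called under each setting. Their range is therefore not read as particular to the proteasome.

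In treated mice the small change of Psme3 turned to -0.052 with array weights. On leaving out single arrays it ran from -0.049 to 0.18, that of Psmb8 from -0.18 to 0.28, that of Psmb7 from -0.0058 to 0.079 and, in untreated mice, that of Psmb10 from -0.073 to 0.10. The causes were not tested. No paired analysis was possible because the numbers in the titles differ for every array and the array numbers only follow the order of the samples. The number of arrays, 3 or 4 a group, limits the precision, and Psmb8 lay near the brightness limit.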
